A study of Rattus norvegicus with 42 samples.

Results

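Neurogenesis and immature neuron genes were described in the hippocampus of rat pups given an anti-seizure drug or vehicle. The set was named as 8 genes, Dcx, Sox11, Sox4, Neurod1, Eomes, Tubb3, Stmn1 and Tbr1, and its members were the transcripts of the count table that carry one of these symbols. Of the 8 genes, 7 were found, each with 1 transcript, among 15516 transcripts of 14304 gene symbols. Eomes is not listed in the count table and was not analysed here.

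Male Sprague Dawley pups received 1 intraperitoneal injection on postnatal day 7 and went back to the dam, and the hippocampus was taken 72 h later. The vehicle (VEH) pups received saline, the phenobarbital (PB) pups 75 mg/kg, and the levetiracetam (LEV) pups 200 mg/kg. Pups of every group were euthanized with pentobarbital, a barbiturate like PB, and perfused before dissection, so that the VEH and LEV pups also met a barbiturate at the end. Each library came from 1 animal, and 1 animal per litter entered each treatment group, with pregnant dams bought in a pair of orders. By the study's methods treatments were balanced within litter, and the labels do not say which animals were littermates. The groups held 13 VEH, 14 PB and 14 LEV animals, after 1 VEH animal that its label marks as excluded was left out. Animals 1 to 6 of a group carry another form of sample code than animals 7 to 14, and this series was taken as the batch; the labels do not say what it stands for.

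New granule neurons keep being made in the dentate gyrus of the rat after birth. Radial glia-like stem cells give rise to dividing progenitors, which express Eomes and then Neurod1, and these leave the cell cycle as neuroblasts that switch on Dcx, Sox4 and Sox11 and later lose them as they mature. Tubb3 and Stmn1 are cytoskeletal genes of young neurons that remain on in many older neurons, and Tbr1 is a T-box factor of glutamatergic neurons of the cortex and hippocampus. In RNA of whole tissue, fewer cells of a type and less RNA per cell cannot be told apart.

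Levels are given as normalized counts, the estimated counts of a transcript scaled to a common library size. Total estimated counts ran from 9499492 to 14488134 per library, with a median of 11319144. VEH animal 1, labelled male like the others, had a summed normalized count of 0.8273 for the 2 Y-linked transcripts, against 1305 to 1898 in the other 40 animals. PB animal 2 had the highest Dcx, Sox11 and Sox4 and the lowest Tubb3 of its group, and of all 41 animals the lowest summed level of the mature neuron list (62690) and of the dividing cell list (2322). Calls between PB and the other groups are also given without both. Hippocampal neuron markers (Prox1, Wfs1, Zbtb20, Fibcd1 and others, of which 4 genes passed the filter on low counts) were summed as a description. Their summed level lay between 4471 and 5856 in VEH, 4043 and 5268 in PB, where animal 2 was lowest, and 4109 and 5476 in LEV. No other tissue was measured beside it, so this sum cannot test the tissue label. Choroid plexus transcripts varied from 86.96 to 85890 between animals, and with their sum as a covariate Sox11 (log2 fold change of PB over VEH 0.33, adjusted p = 0.00311) and Sox4 (0.14, adjusted p = 0.0344) passed and Dcx (0.21, adjusted p = 0.0578) did not, as without it. Skeletal muscle transcripts were lower in PB, at 71.93 to 163 against 125.5 to 478 in VEH and 109.7 to 581.8 in LEV, and what part muscle played in the values was not tested.

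The genes lie on 6 chromosomes of the rn6 build, as the deposited table gives them. Dcx (NM_053379) spans X:115098675-115175300, Sox11 (NM_053349) 6:46629971-46631989, and Sox4 (NM_001271205) 17:37615022-37619728. Neurod1 (NM_019218) spans 3:66414321-66417618 and Tbr1 (NM_001191070) 3:47677465-47687565. Tubb3 (NM_139254) spans 19:56220759-56229814 and Stmn1 (NM_017166) 5:152681145-152686807. Each span is the whole transcript with any introns it has, and none overlaps the span of another gene in the table. Levels of different genes are not compared below, because the values are not per length.

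Promoter windows of RefSeq (GRCr8 build, 250 bases before to 50 after the annotated start) were available for 6 of the 7 measured genes, Dcx, Sox11, Neurod1, Tubb3, Stmn1 and Tbr1. The windows of 4 genes are printed, Dcx and Sox11 because they differed between treatments and Stmn1 and Tbr1 because they varied together between animals. Capitals mark a match to one of 5 motifs searched on both strands, the E-boxes CAGATG and CAGCTG of neurogenic bHLH factors, the SOX motifs ACAAAG and ACAATG, and the T-box motif GGTGTGA.
Dcx, chrX:112304112-112304411, minus strand: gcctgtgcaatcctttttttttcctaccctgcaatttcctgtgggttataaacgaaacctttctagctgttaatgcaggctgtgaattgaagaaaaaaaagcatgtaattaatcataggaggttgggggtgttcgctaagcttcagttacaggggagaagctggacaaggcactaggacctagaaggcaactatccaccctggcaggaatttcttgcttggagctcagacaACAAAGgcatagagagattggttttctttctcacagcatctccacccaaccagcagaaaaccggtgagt
Sox11, chr6:49738745-49739044, minus strand: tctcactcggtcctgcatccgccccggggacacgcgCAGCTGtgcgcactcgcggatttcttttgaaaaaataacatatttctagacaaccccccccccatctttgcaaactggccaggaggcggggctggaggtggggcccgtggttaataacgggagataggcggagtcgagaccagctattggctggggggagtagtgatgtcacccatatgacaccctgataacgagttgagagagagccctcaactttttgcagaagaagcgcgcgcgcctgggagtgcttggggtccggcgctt
Stmn1, chr5:151964929-151965228, plus strand: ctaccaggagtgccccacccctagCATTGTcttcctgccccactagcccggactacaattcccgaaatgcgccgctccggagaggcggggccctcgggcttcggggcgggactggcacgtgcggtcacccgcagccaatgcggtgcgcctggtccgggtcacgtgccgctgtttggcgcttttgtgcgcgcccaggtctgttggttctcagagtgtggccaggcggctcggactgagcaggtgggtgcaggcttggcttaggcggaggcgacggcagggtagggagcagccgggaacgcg
Tbr1, chr3:66759553-66759852, plus strand: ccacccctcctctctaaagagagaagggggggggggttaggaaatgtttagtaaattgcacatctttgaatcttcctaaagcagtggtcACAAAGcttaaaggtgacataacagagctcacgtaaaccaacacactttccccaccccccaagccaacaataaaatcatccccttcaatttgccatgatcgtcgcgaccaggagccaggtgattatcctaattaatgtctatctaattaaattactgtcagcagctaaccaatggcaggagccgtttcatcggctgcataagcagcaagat
The Dcx window held ACAAAG at 19 bases before the start, and the Tbr1 window held it at 161 bases before the start; 18.8% of all 33469 windows held this motif. The Sox11 window held CAGCTG at 214 bases before the start, as did 15.1% of all windows anywhere in their length. ACAATG was found on the opposite strand at 226 bases before the start of Stmn1 and at 150 and 100 bases before that of Tubb3, and in 13.2% of all windows. The Neurod1 window held none of the motifs, and no member window held CAGATG (16.6% of all windows) or GGTGTGA (3.83%). The windows also differed in base composition. Those of Neurod1, Tubb3 and Stmn1 had 68%, 67.3% and 68.3% G or C and 25, 26 and 28 CpG, Sox11 had 58% and 20, while Dcx and Tbr1 had 45% and 45.3% with 3 and 6 CpG, beside medians of 51.7% and 7 over all windows. These are descriptions of the sequence, and no binding was measured.

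The first question was whether PB altered these genes relative to VEH. Sox11 and Sox4, related SOXC factors that drive the neuronal programme in newborn neurons, were higher after PB, Sox11 by 24.0% and Sox4 by 9.96%. Dcx, a microtubule-associated protein of migrating neuroblasts, had a log2 fold change of 0.20 and did not pass the test. The other 4 genes did not pass. Thus 2 of the 7 genes tested changed, both upward, where 5.39% of all 13062 transcripts changed and 1.93% rose. The median log2 fold change of the 7 genes was 0.14, and that of all transcripts 0.005. None of the 7 combined an adjusted p under 0.05 with the fold limit of the study, a rise of at least 25% or the matching fall, while 0.605% of all transcripts did.

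Sox11 had a lowest, median and highest normalized count of 342, 502.3 and 657.2 in VEH, 477, 596.9 and 839.6 in PB, and 368.3, 517.6 and 591 in LEV. The PB range sat higher but overlapped both others, and 12 of 14 PB animals exceeded the VEH mean of their own series. The mean was 499.7 ± 87.6 (SD, n = 13) in VEH and 611.8 ± 98.1 (SD, n = 14) in PB, and the log2 fold change was 0.31 (SE 0.071, 95% interval 0.17 to 0.45, adjusted p = 0.00724, from the quasi-likelihood test of edgeR adjusted by Benjamini-Hochberg). Sox11 also differed between the series, with log2 values 0.24 lower in animals 7 to 14 (a difference of -0.24, SE 0.058, adjusted p = 0.00123), as 30.2% of all transcripts did. It was the 1 gene of the 7 that did so.

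Sox4 was steadier between animals. Its lowest, median and highest normalized counts were 1846, 1982 and 2141 in VEH, 1997, 2108 and 3042 in PB, and 1883, 1974 and 2161 in LEV. The lowest PB animal lay above the median of VEH and of LEV, and the highest, animal 2, stood well apart from the next PB animal at 2352. The coefficient of variation was 4.39% in VEH and 4.49% in LEV, and 12.4% in PB. The log2 fold change of PB over VEH was 0.14 (SE 0.042, 95% interval 0.053 to 0.22, adjusted p = 0.0432), with 12 of 14 PB animals above the VEH mean of their series.

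Dcx had a lowest, median and highest normalized count of 4326, 5523 and 6116 in VEH, 5115, 6060 and 8855 in PB, and 4297, 4973 and 6296 in LEV. The PB and VEH ranges overlapped over most of the VEH range, and 2 PB animals, 2 (8855) and 7 (8393), lay above every VEH and LEV animal by a wide margin. The log2 fold change of PB over VEH was 0.20 (SE 0.068, 95% interval 0.064 to 0.34, adjusted p = 0.0700), and 11 of 14 PB animals exceeded the VEH mean of their series.

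**Figure D1:**
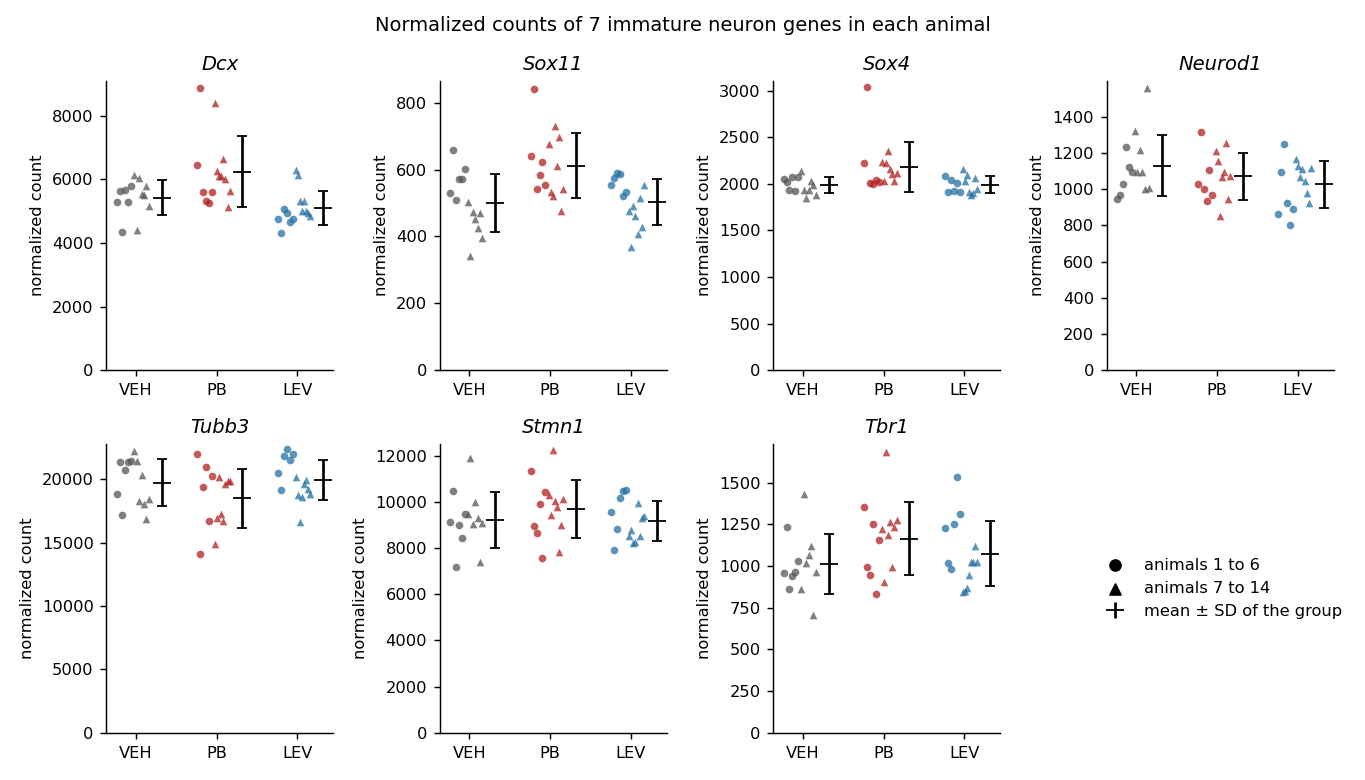
Normalized count of each gene in each animal (y axis, from 0, with its own scale per gene) for VEH, PB and LEV; circles are animals 1 to 6, triangles animals 7 to 14, and the bar is the group mean ± SD. Most PB points of Dcx, Sox11 and Sox4 sit above the VEH mean while the ranges overlap, and PB animal 2 is the topmost point of all 3 genes (8855, 839.6 and 3042).

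With VEH animal 1 and PB animal 2 left out, Sox11 and Sox4 still passed, and 2 of 7 genes rose where 1.38% of all transcripts did. The log2 fold change was then 0.28 for Sox11 (adjusted p = 0.0224), 0.10 for Sox4 (adjusted p = 0.0462) and 0.15 for Dcx (adjusted p = 0.158). When each animal in turn was left out, Sox11 passed in 41 of 41 fits, Sox4 in 28 and Dcx in 2 (without PB animal 5 or 13). The Sox4 call was lost without VEH animal 3, 5, 9, 10, 11, 13 or 14 or PB animal 1, 2, 7, 9, 10 or 11, with adjusted p from 0.0255 to 0.0738 over the 41 fits, and its fold change was smallest, 0.09 on the log2 scale, without PB animal 2.

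Neurod1, a bHLH factor of granule neuron differentiation, ranged from 943.9 to 1559 in VEH (median 1096), from 852.9 to 1314 in PB (median 1071) and from 801 to 1249 in LEV (median 1058). The groups overlapped almost entirely. The log2 fold change of PB over VEH was -0.08 (SE 0.067, 95% interval -0.21 to 0.06, adjusted p = 0.568). Tubb3, the neuronal beta-tubulin, ranged from 16830 to 22240 in VEH (median 20340), from 14100 to 22010 in PB (median 19490) and from 16640 to 22380 in LEV (median 19780). Its log2 fold change was -0.09 (SE 0.054, 95% interval -0.20 to 0.02, adjusted p = 0.353), and the PB animals split evenly, 7 above and 7 below the VEH means.

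Stmn1, a microtubule-destabilizing protein, ranged from 7200 to 11880 in VEH (median 9121), from 7589 to 12260 in PB (median 9844) and from 7913 to 10490 in LEV (median 9072). The log2 fold change was 0.07 (SE 0.064, 95% interval -0.06 to 0.20, adjusted p = 0.585). Tbr1 ranged from 706.8 to 1429 in VEH (median 964.1), from 831.8 to 1684 in PB (median 1206) and from 842.7 to 1533 in LEV (median 1025). Its groups overlapped widely, and its interval was the widest of the 7 genes in this comparison. The log2 fold change was 0.21 (SE 0.095, 95% interval 0.01 to 0.40, adjusted p = 0.213), with 9 of 14 PB animals above the VEH means.

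LEV was next compared with VEH. None of the 7 genes passed by edgeR, none did by DESeq2, and 1 had an unadjusted p under 0.05. Of all 13062 transcripts, 1 passed (0.00766%), and 763 had an unadjusted p under 0.05 (5.84%). The median log2 fold change of the 7 genes was 0.003 and that of all transcripts 0. The 1 gene was Neurod1, at -0.14 on the log2 scale (SE 0.067, 95% interval -0.28 to -0.01, unadjusted p = 0.0403, adjusted p = 0.837), where 12 of 14 LEV animals lay under the VEH mean of their own series. Dcx pointed the same way, at -0.09 (95% interval -0.23 to 0.04, adjusted p = 0.917), also with 12 of 14 animals below. Sox11 was at 0.02 (95% interval -0.12 to 0.17) and Sox4 at 0.003 (95% interval -0.08 to 0.09), and both changed sign under other settings. The intervals for Tubb3 (-0.09 to 0.13), Stmn1 (-0.14 to 0.12) and Tbr1 (-0.11 to 0.28) also held 0.

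The drugs were then compared with each other, PB over LEV. Dcx, Sox11 and Sox4 were all higher after PB, Dcx by 22.6%, Sox11 by 21.9% and Sox4 by 9.73%. These were 3 of the 7 genes, all in one direction, where 4.45% of all transcripts changed, 1.67% rose, and 0.582% also reached the fold limit, which none of the 3 did. The median log2 fold change of the 7 genes was 0.12 and that of all transcripts 0.003. This comparison uses the same PB animals as the one with VEH, so that PB animal 2 enters both.

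For Dcx the log2 fold change of PB over LEV was 0.29 (SE 0.066, 95% interval 0.16 to 0.43, adjusted p = 0.00761), and 13 of 14 PB animals lay above the LEV mean of their series. In animals 1 to 6 the highest LEV value (5079) fell below the lowest PB value (5252), while in animals 7 to 14 the groups overlapped. Fitted within a series, Dcx was at 0.38 (adjusted p = 0.0914) in animals 1 to 6 and 0.23 (adjusted p = 0.161) in animals 7 to 14, and did not pass in either. For Sox11 it was 0.29 (SE 0.070, 95% interval 0.15 to 0.43, adjusted p = 0.0139), with 12 of 14 above, and within the series 0.17 (adjusted p = 0.381) and 0.37 (adjusted p = 0.0524). For Sox4 it was 0.13 (SE 0.041, 95% interval 0.051 to 0.22, adjusted p = 0.0496), with 14 of 14 above. Dcx and Sox11 passed in all 41 fits that leave out 1 animal. Sox4 passed in 12, those without VEH animal 8 or 9, LEV animal 1, 7, 8 or 9, or PB animal 3, 4, 5, 6, 8 or 13, with adjusted p from 0.0314 to 0.0865 over the 41. Without VEH animal 1 and PB animal 2, Dcx (0.24, adjusted p = 0.0144) and Sox11 (0.25, adjusted p = 0.0346) passed and Sox4 (0.09, adjusted p = 0.0663) did not. Neurod1 (0.07, adjusted p = 0.638), Tubb3 (-0.11, adjusted p = 0.245), Stmn1 (0.08, adjusted p = 0.524) and Tbr1 (0.12, adjusted p = 0.511) did not pass.

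**Figure D2:**
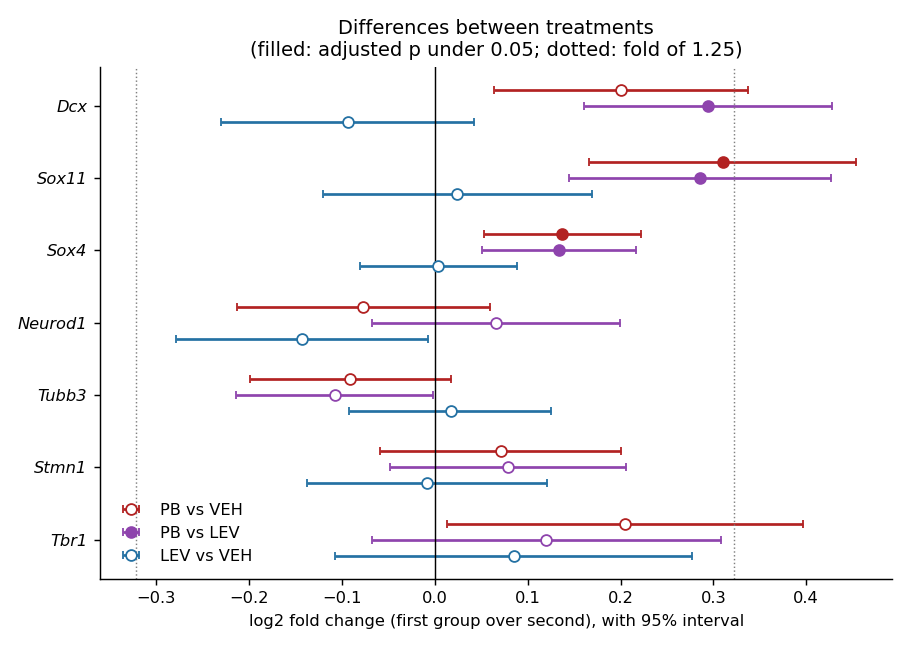
Log2 fold change of each gene (x axis) with its 95% interval for PB against VEH, PB against LEV and LEV against VEH; filled points have an adjusted p under 0.05 and dotted lines mark the fold limit, a 25% rise and the matching fall. The 5 filled points belong to Sox11 and Sox4 against VEH (0.31 and 0.14) and to Dcx, Sox11 and Sox4 against LEV (0.29, 0.29 and 0.13), and each lies inside the dotted lines.

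Each comparison was repeated within each series, since the series holds all 3 groups. In PB against VEH, the log2 fold change of Sox11 was 0.14 in animals 1 to 6 (SE 0.087, adjusted p = 0.552), which did not pass, and 0.45 in animals 7 to 14 (SE 0.098, adjusted p = 0.0127), which did. VEH animals of the first series had Sox11 counts of 508.1 to 657.2 and PB animals 541.6 to 839.6, so that the groups overlapped. In the second series they ran from 342 to 502.3 and from 477 to 728.9, and 1 PB animal fell within the VEH range. The difference between the series was 0.32 (SE 0.137, unadjusted p = 0.0274, adjusted p = 0.388) and did not pass. Dcx (0.22 and 0.19) and Sox4 (0.14 and 0.14) had like fitted values in both series, though neither passed in either. PB animal 2, with the highest count of both genes, belongs to the first series. There the Sox4 median was 2029 in PB and 2038 in VEH, and the Dcx median 5611 and 5457. In the second series the Sox4 medians were 2138 and 1930, and the Dcx medians 6107 and 5523.

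For Tbr1 the log2 fold change of PB over LEV was -0.17 in animals 1 to 6 (adjusted p = 0.543) and 0.34 in animals 7 to 14 (adjusted p = 0.145), and neither passed. The difference between the series was 0.51 (SE 0.174, unadjusted p = 0.00594) and did not pass after adjustment (adjusted p = 0.623). The Tbr1 mean of LEV was 1221 ± 201.5 (SD, n = 6) in the first series and 963.5 ± 101.6 (SD, n = 8) in the second. That of PB was 1089 ± 197.2 (SD, n = 6) and 1220 ± 230.8 (SD, n = 8). No gene of the 7 passed for a difference between series in any comparison, where 0.0689%, 0.842% and 0.023% of all transcripts passed for PB against VEH, LEV against VEH and PB against LEV. At an unadjusted p under 0.05 there were 3 such cases, the Sox11 and Tbr1 ones above and Tbr1 in LEV against VEH (a difference of -0.38, SE 0.177, p = 0.0394).

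**Figure D3:**
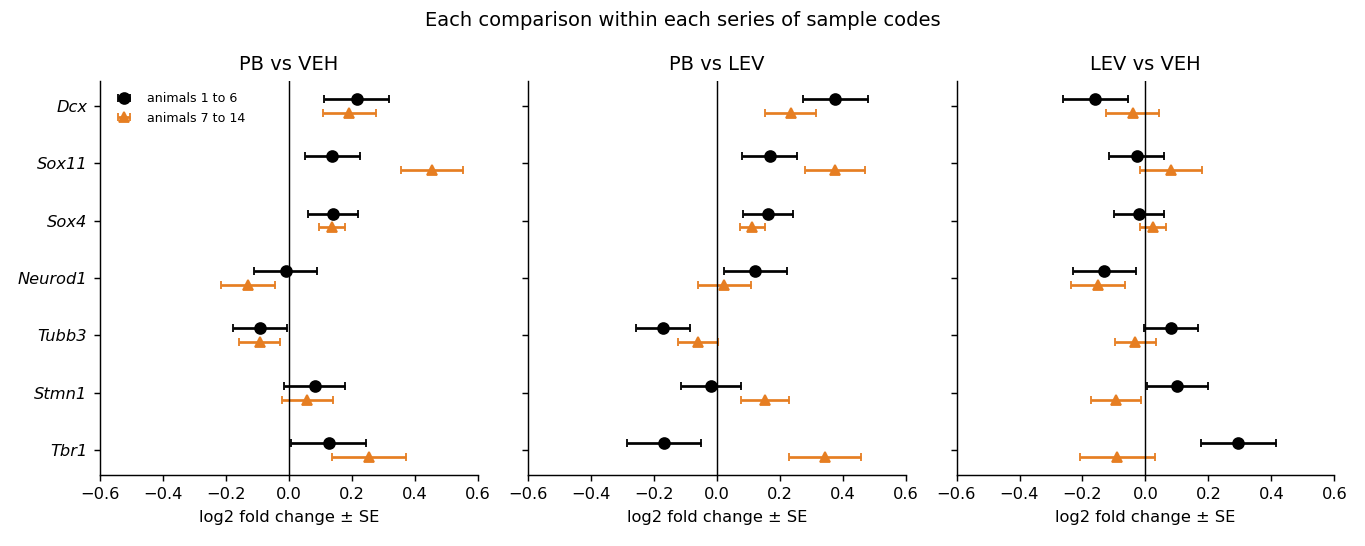
Log2 fold change ± SE (x axis) of each gene in animals 1 to 6 (circles) and in animals 7 to 14 (triangles), each fitted alone, for the 3 comparisons. Dcx and Sox4 have like values in both series against VEH, Sox11 is at 0.14 and 0.45, and Tbr1 in PB against LEV lies on opposite sides of 0 (-0.17 and 0.34). PB animal 2, with the highest Dcx and Sox4 of its group, is in the first series.

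The 7 genes did not vary as one between animals. Correlations were taken over 41 animals on log2 CPM with the mean of each treatment and series removed, for 21 pairs, with p from 100000 permutations within treatment and series. After Benjamini-Hochberg adjustment 10 pairs had p under 0.05, 8 positive and 2 negative. Dcx, Sox11 and Sox4 varied together, and Tubb3, Stmn1 and Tbr1 formed another group. Neurod1 went with Dcx and Sox11 and against Stmn1 and Tbr1.

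Dcx and Sox4 had a Pearson r of 0.69 (Spearman rho 0.55, permutation p = 0.00031, adjusted 0.00217), and r was 0.54 without the 2 animals farthest from the Dcx median. PB animal 2 is one of these, and within the series r was 0.88 and 0.45. Dcx and Sox11 had r of 0.55 (rho 0.47, permutation p = 0.00262, adjusted 0.00786), and 0.39 without the 2 farthest animals. The corresponding values for Sox11 and Sox4 were 0.53 (rho 0.40, permutation p = 0.00496, adjusted 0.0116) and 0.39. All of these were weaker in animals 7 to 14 (0.45, 0.37 and 0.34) than in animals 1 to 6 (0.88, 0.83 and 0.80), a contrast that was not tested and in which PB animal 2 belongs to the first series.

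Stmn1 and Tbr1 were the most closely tied pair, with r of 0.85 (rho 0.83, permutation p = 1e-05, the smallest these permutations can give, adjusted 0.000105). It was 0.81 without the 2 farthest animals, and 0.90 and 0.82 within the series. Neurod1 and Tbr1 ran opposite to each other, with r of -0.71 (rho -0.72, permutation p = 1e-05, adjusted 0.000105), -0.64 without the 2 farthest, and -0.64 and -0.76 within the series. Neurod1 and Stmn1 also ran opposite (r of -0.52, rho -0.49, permutation p = 0.00169, adjusted 0.00689), with -0.45 without the 2 farthest. Neocortex, which borders the hippocampus, also expresses Tbr1 and Stmn1, so that these ties describe the samples as dissected and cannot be assigned to hippocampal neurons.

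**Figure D4:**
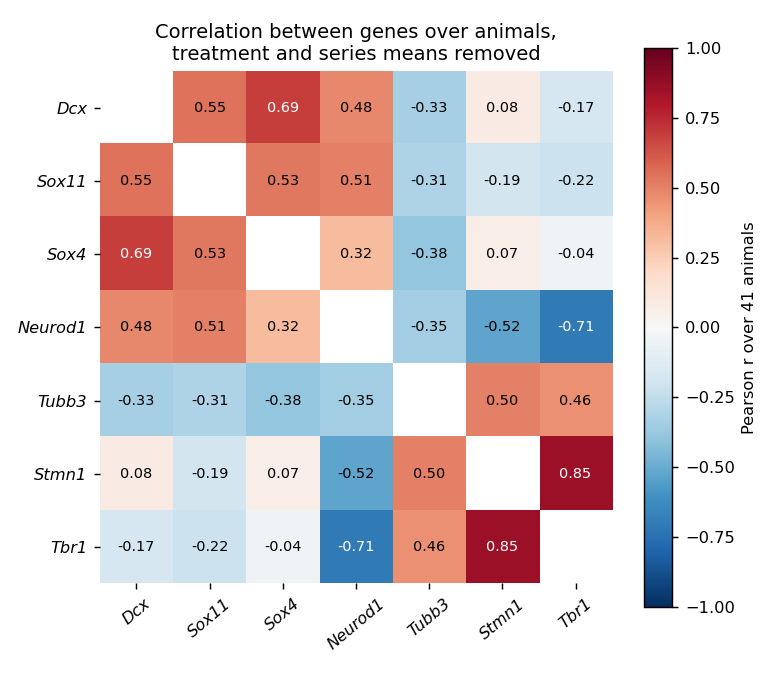
Pearson r between each pair of genes over 41 animals, on log2 CPM with treatment and series means removed; red is positive and blue negative. Dcx, Sox11 and Sox4 form a positive block (0.53 to 0.69) and Tubb3, Stmn1 and Tbr1 another (0.46 to 0.85), Neurod1 with Sox4 is at 0.32 (adjusted p = 0.0972; 0.15 without PB animal 2), and the darkest blue cell is Neurod1 with Tbr1 (-0.71).

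Summed marker levels of other tissue parts were set beside these values in the same way, for 8 lists and 7 genes, or 56 pairs, a comparison chosen after the values were seen. Dcx and Sox4 ran against the summed mature neuron markers, Sox4 with r of -0.69 (rho -0.52, permutation p = 0.00447, adjusted 0.0313) and Dcx with -0.63 (rho -0.41, permutation p = 0.00211, adjusted 0.0197). Without the 2 animals farthest in each gene, r was -0.46 and -0.32. In animals 1 to 6, the series of PB animal 2, r was -0.87 for Sox4 and -0.86 for Dcx, and in animals 7 to 14 it was -0.33 and -0.36. Dcx also ran against the oligodendrocyte sum (r of -0.61, rho -0.40, permutation p = 0.00066, adjusted 0.00784), with -0.40 without the 2 animals farthest in Dcx, and -0.82 and -0.33 within the series. PB animal 2 had the lowest of both sums, and with ranks the adjusted p for Dcx was 0.073 and 0.077. Against the summed hippocampal neuron markers, Stmn1 had r of -0.53 (rho -0.47, permutation p = 0.0007, adjusted 0.00784, with ranks 0.0297) and Sox4 -0.42 (rho -0.48, permutation p = 0.00294, adjusted 0.0235, with ranks 0.0161), or -0.44 and -0.41 without the 2 farthest animals. Within the series r was -0.359 and -0.667 for Stmn1, and -0.595 and -0.286 for Sox4. Cajal-Retzius cells also express Tbr1, and their markers Reln (-0.16, adjusted p = 0.121) and Tp73 (0.08, adjusted p = 0.802) did not pass in PB against VEH.

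The transcripts of other genes closest to each member were found among 13062 transcripts over the same 41 animals, as a description. Dcx was closest to Lpl (r of 0.86), Mtss1 (0.83) and Apaf1 (0.81), which were 0.81, 0.79 and 0.75 without PB animal 2. Sox11 was closest to Limch1 (0.78), Fat4 (0.74) and Zeb2 (0.74). For Sox4 the leading transcript was Eif4b (0.78), followed by Vash2 (0.75) and Tmem229a (0.74), and without PB animal 2 these were 0.58, 0.60 and 0.47. Neurod1 was closest to Bhlhe22 (0.81), another neuronal bHLH factor, Sema3c (0.80) and Ptx3 (0.79). Tubb3 was closest to the tubulins Tuba1b (0.90), Tubb5 (0.90) and Tuba1a (0.89). The nearest to Stmn1 was Tbr1 itself (0.85), then Prkar2b (0.84) and the growth cone gene Gap43 (0.84). Among the transcripts close to Tbr1 were Tshz3 (0.88) and Rgs4 (0.87).

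Other genes were followed from lists ordered by stage, except that of tubulin and stathmin relatives, which was chosen by gene family. The dividing cell list holds genes of S phase and mitosis and is not limited to cells of the neuronal lineage. Among 16 transcripts of neural stem cells and radial glia, 2 rose and 1 fell in PB against VEH, where 1.93% of all transcripts rose and 3.46% fell, with a median log2 fold change of 0.05. Vim, an intermediate filament of radial glia and astrocytes, rose by 0.30 (SE 0.062, adjusted p = 0.00367), higher in 14 of 14 PB animals than the VEH mean of their series. Sox2, a factor of stem cells and astrocytes, rose by 0.17 (SE 0.044, adjusted p = 0.0171), and 1 of 4 transcripts of the glutamate transporter Slc1a3 fell by 0.16 (NM_019225, adjusted p = 0.0286), while the other 3 were at -0.13, 0.12 and 0.08 and did not pass. Without VEH animal 1 and PB animal 2, Vim and Sox2 passed and Slc1a3 did not. In PB against LEV, 1 of the 16 rose, Sox2 (0.16, adjusted p = 0.0234; 0.15 and 0.0478 without the 2 animals), and none fell. Of 12 transcripts of the astrocyte list, 1 rose and none fell in PB against VEH, and 4 had positive values, with a median of -0.06. The one that rose was Gfap, a filament that dentate stem cells share with astrocytes (0.32, SE 0.064, adjusted p = 0.00241), and the water channel Aqp4 was at -0.22 (adjusted p = 0.154).

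Among 9 transcripts of committed progenitors, 0 passed in PB against VEH by edgeR or DESeq2, and 1 had an unadjusted p under 0.05 by edgeR and 2 by DESeq2, where 20.2% of all transcripts did by edgeR. The values were 0.13 for Hes6 (adjusted p = 0.189) and 0.27 for Igfbpl1 (adjusted p = 0.256), and the median was 0.07. In PB against LEV 0 of the 9 passed by edgeR, and 4 had an unadjusted p under 0.05, 3 of them higher in PB. Of all 13062 transcripts, 2565 had such a p in that comparison. Without VEH animal 1 and PB animal 2 the 4 became 2, 1 of them higher. Among 14 transcripts of dividing cells, 0 passed in PB against VEH by edgeR. Of these 14, 6 had an unadjusted p under 0.05 beside 20.2% of all transcripts, and DESeq2 called 1, the kinetochore gene Cenpf. The log2 fold changes of all 14 were positive, with a median of 0.18, from 0.01 for Pcna to 0.44 for Aurkb. Without VEH animal 1 and PB animal 2, the dividing cell count became 5, where 1.38% of all transcripts rose in that fit. They were the proliferation marker Mki67 (0.23), the topoisomerase Top2a (0.31), Cenpf (0.38) and the mitotic regulators Cdk1 (0.31) and Ccna2 (0.33). These 5 are named because of their values. In PB against LEV, 1 of the 14 rose by edgeR, Cenpf (0.41, adjusted p = 0.0177), where 1.67% of all transcripts rose, and all 14 values were positive (median 0.19). Without those 2 animals 3 rose, Cenpf, Ccna2 and Top2a, where 1.19% of all transcripts did. PB animal 2, with the highest Dcx, Sox11 and Sox4, had the lowest dividing cell sum.

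Among 35 transcripts of other immature neuron genes, 2 rose and none fell in PB against VEH, 9 had an unadjusted p under 0.05, which is 25.7% of the list beside 20.2% of all transcripts, and the median was 0.05. St8sia2, the polysialyltransferase that modifies NCAM in young neurons, rose by 0.42 (SE 0.126, adjusted p = 0.0409), from 118.8 ± 29.4 (SD, n = 13) in VEH to 158.9 ± 39.6 (SD, n = 14) in PB. One of 4 transcripts of Nnat, a non-coding one, rose by 0.56 (SE 0.173, adjusted p = 0.0474), and since the reads of one gene were divided among its transcripts by estimation its value is uncertain. Without VEH animal 1 and PB animal 2 neither passed (St8sia2 0.37, adjusted p = 0.0989; Nnat 0.48, adjusted p = 0.112), and the count was 0, with 10 of 35 at an unadjusted p under 0.05 beside 18.7% of all transcripts. In PB against LEV, 3 rose, Cd24 (0.26, adjusted p = 0.0127), St8sia2 (0.50, adjusted p = 0.0154) and the collapsin response mediator Dpysl3 (0.20, adjusted p = 0.0460), and Mllt11 fell (-0.11, adjusted p = 0.0464), where 1.67% of all transcripts rose and 2.78% fell. Without VEH animal 1 and PB animal 2, Cd24 (adjusted p = 0.0253) and St8sia2 (adjusted p = 0.0379) passed, and Dpysl3 (adjusted p = 0.0896) and Mllt11 (adjusted p = 0.0617) did not.

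The list of tubulin and stathmin relatives, a gene family list, and the mature neuron list had negative medians. Among 19 transcripts of tubulin and stathmin relatives, 4 fell and none rose in PB against VEH, where 3.46% of all transcripts fell, and the median was -0.08. Tubb2a fell by 0.19 (SE 0.036, adjusted p = 0.00226), lower in 14 of 14 PB animals, Tuba4a by 0.29 (adjusted p = 0.0237), Tuba1b by 0.15 (adjusted p = 0.0341) and Stmn2 by 0.08 (adjusted p = 0.0498). Among 18 transcripts of mature neurons, 4 fell and none rose, with a median of -0.14. They were 1 of 3 Camk2b transcripts (NM_021739, -0.19, adjusted p = 0.00595), the neurofilament Nefl (-0.29, adjusted p = 0.00584), Thy1 (-0.25, adjusted p = 0.0294) and Camk2a (-0.26, adjusted p = 0.0364). The other Camk2b transcripts were at 0.12 (NM_001042356, adjusted p = 0.228) and -0.10 (NM_001042354, adjusted p = 0.842), and the division of reads among them by estimation makes each uncertain. Without VEH animal 1 and PB animal 2 3 of the mature neuron transcripts fell, the same Camk2b transcript, Nefl and Thy1, and of the tubulin and stathmin transcripts 4 fell and 1, Tubb6, rose (0.28, adjusted p = 0.0420), where 2.76% of all transcripts fell.

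In PB against LEV, 4 of the 19 tubulin and stathmin transcripts and 8 of the 18 mature neuron transcripts fell, where 2.78% of all transcripts fell, and 1 mature neuron transcript, Camk2b NM_001042356, rose (0.19, adjusted p = 0.0433; 0.17 and 0.0822 without VEH animal 1 and PB animal 2). A pair of Snap25 transcripts among the 8 (-0.18, adjusted p = 0.0236) held identical values in every animal, so that the 18 transcripts are 17 distinct measurements and the 8 are 7. The tubulin and stathmin transcripts were Tubb2a (-0.19, adjusted p = 0.00158), Tuba4a (-0.31, adjusted p = 0.0163), Tubb4b (-0.21, adjusted p = 0.0140) and 1 of 6 Stmn4 transcripts (NM_001270856, -0.26, adjusted p = 0.0495). Beside Snap25 and Camk2b NM_021739 (-0.20, adjusted p = 0.00522), the mature neuron transcripts that fell were the neurofilaments Nefl (-0.28, adjusted p = 0.00716), Nefm (-0.27, adjusted p = 0.0121) and Nefh (-0.49, adjusted p = 0.0148), Thy1 (-0.27, adjusted p = 0.0203) and Vsnl1 (-0.26, adjusted p = 0.0460). When VEH animal 1 and PB animal 2 were left out, 3 of the 4 and 7 of the 8 fell, all but Stmn4 and Vsnl1, where 2.19% of all transcripts fell. In LEV against VEH no transcript of these 6 lists passed by edgeR or DESeq2. By edgeR 3 of 16 stem cell transcripts, 0 of 9 progenitor, 0 of 14 dividing cell, 2 of 35 other immature neuron, 1 of 19 tubulin and stathmin and 2 of 18 mature neuron transcripts had an unadjusted p under 0.05. Of all transcripts, 5.84% did.

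Markers of other cells were lower in PB in part. Of 7 interneuron transcripts, 2 fell and none rose in PB against VEH, where 3.46% of all transcripts fell. An unadjusted p under 0.05 was found for 5, beside 20.2% of all transcripts. Those that fell were the peptide somatostatin, Sst (-0.38, adjusted p = 0.00183, lower in 14 of 14 PB animals), and the vesicular GABA transporter Slc32a1 (-0.27, adjusted p = 0.00367), and Gad1 was at -0.16 (adjusted p = 0.0605). In PB against LEV these 3 fell (Sst -0.46, Slc32a1 -0.29 and Gad1 -0.18), where 2.78% of all transcripts fell. Without VEH animal 1 and PB animal 2, Sst and Slc32a1 passed in both comparisons and Gad1 (adjusted p = 0.0736 against LEV) did not. Dlx1, which had not passed with all animals, fell against LEV in that fit (-0.17, adjusted p = 0.0435). The count against LEV was thus again 3 of 7, where 2.19% of all transcripts fell.

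Of all transcripts, 3.46% fell and 1.93% rose in PB against VEH, and 2.78% fell and 1.67% rose in PB against LEV. Of 5 hippocampal neuron transcripts, 2 fell in PB against VEH and none rose, with a median of -0.20. Both belong to Fibcd1, a marker of CA1 (-0.22, adjusted p = 0.0285, and -0.22, adjusted p = 0.0222), and without the 2 animals 1 of them passed (adjusted p = 0.0420 and 0.0513). In PB against LEV 1 was higher in PB, Zbtb20 (0.46, adjusted p = 0.0176). In PB against VEH Zbtb20 was at -0.04 by DESeq2 (adjusted p = 0.897). In LEV against VEH none of the 5 passed by edgeR, and 1 fell by DESeq2. The paper reports Zbtb20 as lower after LEV than after VEH, and counts it among genes enriched in astrocytes. Of 13 oligodendrocyte transcripts 1 fell in PB against VEH, the myelin gene Opalin (-1.39, adjusted p = 0.0339; 0.0698 without the 2 animals), and 2 fell against LEV, Opalin (-1.86, adjusted p = 0.00496) and Mobp (-1.39, adjusted p = 0.0211). In LEV against VEH all 13 had positive values by edgeR, with a median of 0.43. None passed there, and 6 had an unadjusted p under 0.05, where 5.84% of all transcripts did. Of 3 skeletal muscle transcripts, 3 fell in PB against VEH and in PB against LEV. None of 13 choroid plexus, 6 oligodendrocyte precursor, 6 microglia and 4 red blood cell transcripts passed in either by edgeR or DESeq2, with 1 microglia transcript in each comparison and 1 red blood cell transcript against LEV at an unadjusted p under 0.05 by edgeR. Of 5 endothelium transcripts 1, Cldn5, fell against LEV (-0.22, adjusted p = 0.0227). The part that these cells had in the values of the mature neuron list was not tested.

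**Figure D5:**
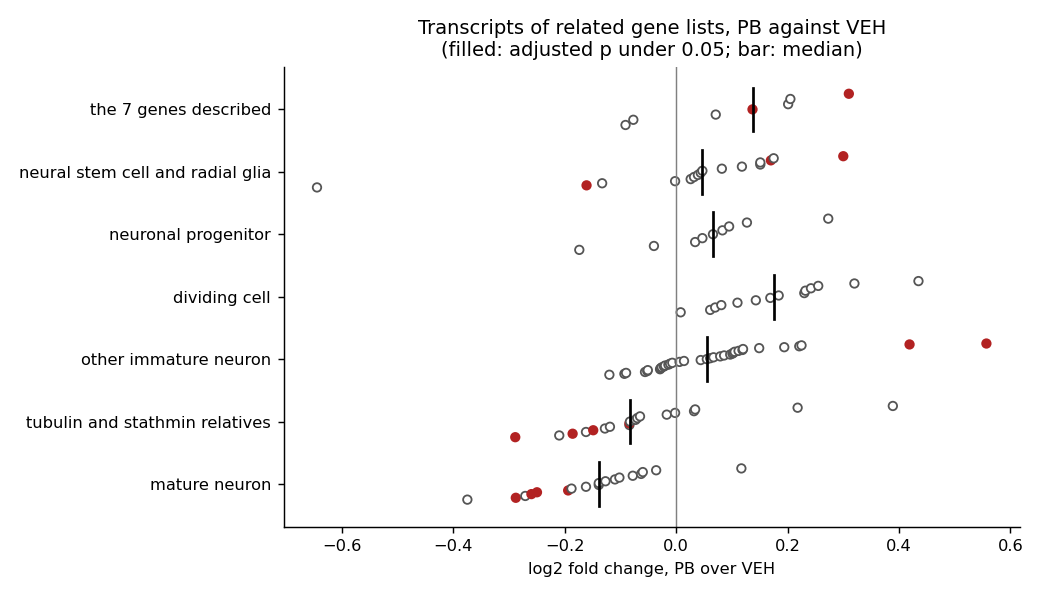
Log2 fold change of PB over VEH (x axis) for each transcript of the 7 genes and of 6 related lists. The lists are ordered by stage, except that of tubulin and stathmin relatives, which was chosen by gene family. The dividing cell list is not limited to cells of the neuronal lineage. Filled points have an adjusted p under 0.05 and bars are medians. The median is 0.14 for the 7 genes, 0.18 for dividing cells and -0.14 for mature neurons, and the 4 filled mature neuron points all lie below 0.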

How the data were processed

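Hippocampal RNA libraries (NEBNext Ultra, 150-bp paired-end reads by the study's methods) were processed by the authors, who removed adaptor, poly-N and low-quality reads, aligned with STAR 2.7.3a to rn6 and quantified with Partek E/M. The deposited values used here are estimated counts per RefSeq transcript, before normalization, of which 13.7% were not whole. Whether strand was used is not given in the sources used here. A deposited table of the authors' comparisons (fold changes, p values, group means) was not used. The E/M step divides reads among similar transcripts, which makes values of shared transcripts uncertain.

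The rounded counts went into edgeR 4.0.16 under R 4.3.3 (TMM, filterByExpr by treatment, glmQLFit and glmQLFTest), with treatment and the series of the sample codes as terms. P-values, two-sided, were adjusted by Benjamini-Hochberg over the 13062 transcripts tested, with a limit of 0.05, and the study's fold limit (a 25% rise or the matching fall) was counted beside it. A verb of change is used for transcripts with an adjusted p under 0.05, whether or not they reached the fold limit. SE was the log2 fold change divided by the root of F. Total counts per library, 9499492 to 14488134, set the precision, and counting error is included in the spread between animals. In simulated counts for PB against VEH on 13024 transcripts, 69 of 100 transcripts raised or lowered by the fold limit and 96 of 100 changed 2-fold were found, with 6 false calls, and 0 calls between LEV and VEH. The simulation drew each transcript independently, without a difference between the series and without animals that stood apart, unlike these data.

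All members are named, and of each neuronal, stem cell, dividing cell, astrocyte and oligodendrocyte list the 2 transcripts with the smallest p between PB and VEH and those past 0.05 in any comparison, up to 8 (other lists are given by counts); likeness was Pearson's r on log2 CPM (prior count 2), 3 transcripts per member. The members and lists were chosen with earlier results of these data known. Each alternative was also run: DESeq2 1.42.0, its size factors, other filters, no batch term, batch-by-treatment terms, either series by itself, a block for the animal number, all 14 VEH animals, 2 groups only, counts per gene symbol, choroid plexus or dividing cell sums as covariates, and each animal left out. Leaving out VEH animal 1 and PB animal 2 together was added after seeing the data. The excluded VEH animal was left out as its label says. Results of the neocortex list, 1 of the 8 marker lists set beside the members, are not reported here.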

Additional observations from a re-analysis of the deposited data

How the results depend on the processing

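Against VEH, PB members past the test numbered 2. They numbered 1 without a filter on low counts, without a batch term, in animals 7 to 14 alone, with all 14 VEH animals and with only the 2 groups compared, 0 in animals 1 to 6 alone and 0 with the fold limit, and 1 to 3 when 1 animal was left out. DESeq2 called 3, Dcx included (adjusted p = 0.0412). The share of all transcripts that DESeq2 called in this comparison is not given, so this count has no background beside it. Over 15 alternatives the adjusted p ran from 0.00141 to 0.552 for Sox11 (14 passed), 0.0227 to 0.494 for Sox4 (8 passed) and 0.0412 to 0.413 for Dcx (1 passed). Against LEV, 3 members became 1 without a batch term, with all 14 VEH animals or with the dividing cell covariate, 0 in animals 1 to 6 or 7 to 14 alone and 0 with the fold limit. LEV against VEH gave 0 members in every alternative run.

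The labels do not say whether the animal number marks a litter, and the main fit used no pairing. Same-numbered animals of different groups had deviations correlated at -0.332 to 0.329 (median 0), with 10 of 40 pairs over 0.1. Of 41 animals, 3 correlated best with their own number. Such correlations cannot show whether same-numbered animals were littermates. With the number as a replicate block, 1 member (Sox11) and 447 transcripts passed between PB and VEH, 0 transcripts between LEV and VEH, and 2 members (Dcx and Sox11) between PB and LEV.

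Among all transcripts, the 704 between PB and VEH became 410 without a batch term, 64 in animals 1 to 6, 392 with all 14 VEH animals, 79 with the fold limit, and 442 to 891 with 1 animal left out, the fewest without PB animal 7. The 581 between PB and LEV became 288, 81, 174 and 76, with 132 in animals 7 to 14, 165 with the dividing cell covariate, and 283 (without PB animal 7) to 778 with 1 animal left out, among them 362 without LEV animal 2. The 1 between LEV and VEH became 10 by DESeq2, 2 without a filter, with a filter at a mean of 50 counts or with the choroid plexus covariate, 17 with batch-by-treatment terms, 346 in animals 1 to 6, 6 in animals 7 to 14, 3 with the dividing cell covariate, 0 under the other changed settings, and 0 to 5 with 1 animal left out.

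Signs that turned belonged to values that did not pass. Against VEH, LEV gave Sox11 -0.028 (animals 1 to 6), -0.017 (all 14 VEH animals) and -0.006 to 0.05 with 1 animal left out; Sox4 -0.020 (animals 1 to 6), -0.004 (replicate block), -0.007 (dividing cell covariate) and -0.006 to 0.014; Tubb3 -0.032 (animals 7 to 14), -0.043 (all 14 VEH animals) and -0.001 to 0.037; Stmn1 0.002 (batch-by-treatment terms), 0.101 (animals 1 to 6), 0.049 (all 14 VEH animals) and -0.034 to 0.028; and Tbr1 -0.089 (animals 7 to 14). In animals 1 to 6, PB against LEV gave Stmn1 -0.019 and Tbr1 -0.169. The causes were not tested. Each series alone holds fewer animals.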
